A study of Mus musculus with 26 samples.

Results

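The CCN genes encode secreted matricellular proteins, and 5 of them, Ccn1, Ccn2, Ccn3, Ccn4 and Ccn5 (older symbols Cyr61, Ctgf, Nov, Wisp1 and Wisp2), were followed by RNA-Seq across SMYD3 knockdown and overexpression in C2C12 cells. They were taken by symbol from the 55341 genes counted in each of 26 libraries. The family was selected on the counts of Ccn3, which were lower both with the SMYD3 siRNAs and in the SMYD3 clone, so the values of Ccn3 are given as a description, without a test, and only Ccn1, Ccn2, Ccn4 and Ccn5 were tested. A 6th family gene, Ccn6, was not among the genes chosen; it had at most 24 counts in any library.

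C2C12 cells are mouse myoblasts that stop dividing and fuse into multinucleated myotubes once serum is lowered. In the knockdown experiment, unmodified C2C12 cells were transfected in 2 rounds with a control siRNA (siCtrl) or with siSMYD3#1 or siSMYD3#2, and RNA was taken at 0 h and 24 h of differentiation, with 3 libraries in each of the 6 groups. By the paper's methods the 1st round was on proliferating cells. The 2nd came 24 h later, when differentiation was induced, so time since transfection rose together with time of differentiation. In the overexpression experiment, the SMYD3 clone CL5, a single clone made with the retroviral vector pREV carrying HA- and Flag-tagged SMYD3, was compared with C2C12 cells carrying the empty pREV vector at the same time points, with 2 libraries in each of the 4 groups. Replicates 1 and 2 of every siRNA group were extracted with NucleoSpin at passage 14 and replicate 3 with TRIzol at passage 11, so that extraction and passage cannot be told apart, whereas all overexpression libraries were extracted with TRIzol.

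CCN proteins share an insulin-like growth factor binding module, a von Willebrand factor C module and a thrombospondin module, and all except CCN5 also carry a C-terminal cysteine knot. They bind integrins, heparan sulfate proteoglycans and other receptors, and act on adhesion, migration and growth factor signalling rather than as structural matrix. CCN1 and CCN2 are rapidly induced by serum, mechanical tension, TGF-beta and the YAP and TEAD factors. CCN2 is known as a profibrotic factor of muscle, and CCN3 often acts in opposition to CCN2.

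On GRCm38 the genes lie apart from one another, apart from Ccn3 and Ccn4, which share a chromosome. Ccn1 (ENSMUSG00000028195) lies on chromosome 3 from 145646976 to 145649981 on the minus strand, and Ccn2 (ENSMUSG00000019997) on chromosome 10 from 24595442 to 24598683 on the plus strand. Ccn3 (ENSMUSG00000037362) lies on chromosome 15 from 54745702 to 54754039, Ccn4 (ENSMUSG00000005124) on chromosome 15 from 66891320 to 66923201, and Ccn5 (ENSMUSG00000027656) on chromosome 2 from 163820861 to 163833146, all on the plus strand. Of the 2861 exon bases of Ccn2, 665 are shared with Gm15270 on the opposite strand, and since the strand setting of the counting is not given in the sources used here, the level of Ccn2 is uncertain to that extent. The other 4 share no exon bases with another annotated gene.

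Since the siRNAs are the treatment under which Ccn3 was lower, their antisense strands are shown with the seed, bases 2 to 8, in capitals and without the terminal deoxynucleotides.
siSMYD3#1: gUUGGGGUcacagcuguga
siSMYD3#2: uCAAAUCUucaaucaggcu
siCtrl: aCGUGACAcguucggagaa
Both SMYD3 strands had a match without mismatch in an annotated mouse Smyd3 transcript of 6871 bases. Among the protein-coding transcripts of the 5 CCN genes, the 7-base complement of a seed occurred once, for siSMYD3#1 in Ccn3. That match lies in exon 2 of 5 of the coding Ccn3 transcript, in the coding sequence, at chr15:54746368-54746374 of GRCm38 on the plus strand, and is shown in capitals in the 19 bases opposite the siRNA.
Ccn3, opposite siSMYD3#1: ccgcagcgcagACCCCAAc
Over these 19 bases the siRNA and Ccn3 had 5 mismatches. A complement of the siSMYD3#1 seed was present in 28.2% of 12620 coding genes tested, that of siSMYD3#2 in 24.7% and that of siCtrl in 8.46%, and none of the CCN transcripts held the complement of the siSMYD3#2 or the siCtrl seed. Whether the match takes part in the level of Ccn3 was not tested.

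The promoter of Ccn1 from RefSeq, on the GRCm38.p6 build at chr3:145649936-145650235 on the minus strand, is shown because no other CCN promoter was available in the sequences used here. It runs from 250 bases before to 50 bases after the annotated start of the gene, 5′ to 3′, and capitals mark the letters of the motifs searched on both strands.
Ccn1 promoter: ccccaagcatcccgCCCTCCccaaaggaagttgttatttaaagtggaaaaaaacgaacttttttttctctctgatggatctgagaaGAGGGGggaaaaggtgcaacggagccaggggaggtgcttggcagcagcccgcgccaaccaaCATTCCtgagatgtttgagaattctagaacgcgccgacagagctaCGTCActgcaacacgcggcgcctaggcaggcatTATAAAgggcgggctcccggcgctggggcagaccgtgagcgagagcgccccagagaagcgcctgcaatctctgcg
The TEAD core CATTCC began at -103 from the start and is in 14.7% of 32851 promoters of the same length. CCCTCC at -236 and GAGGGG at -164, letters described for SMYD3 binding, are in 39.2% and 32.9% of promoters. The TATA core TATAAA at -25 is in 13.6%. The letters TGACG, the core of a cyclic AMP response element, was on the minus strand at -58 and is in 20.8%. No match to the CArG box of SRF was found in this window, against 1.63% of all promoters. These matches are letters in a window and were not tested for binding.

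Total counts were between 14315193 and 67853386 per library. Levels are given in CPM, counts scaled to the TMM library size, and are divided by the exon length in kb wherever genes are compared with each other. Reads copied in PCR were not told apart, so the floor of 3 counts per library used here covers counting error only. Smyd3 itself was at 19.5 ± 1.48 CPM (SD, n = 3) with siCtrl at 24 h, 16.5 ± 2.40 with siSMYD3#1 and 6.82 ± 2.45 with siSMYD3#2. It passed the threshold, an adjusted p under 0.01, with siSMYD3#2 only (edgeR quasi-likelihood test, log2 fold change -1.51, adjusted p = 5.06e-05); with siSMYD3#1 the log2 fold change was -0.24 (adjusted p = 0.414). In CL5 the count of mouse Smyd3 was 22.6 ± 2.36 CPM (SD, n = 2) at 24 h against 17.7 ± 0.812 with the vector and did not pass (log2 fold change 0.36, edgeR adjusted p = 0.671). The species of the SMYD3 cDNA is not given in the sources used here, so this count may not check the transgene. The paper also followed SMYD3 by western blot and qPCR after the siRNAs, and describes the cells as knocked down. It checked the tagged protein in its clones by western blot and immunofluorescence. Those assays are not part of these counts. All 5 myoblast markers reached 1 CPM in every group, and summed endothelial and leukocyte markers stayed at or under 3.81 and 6.75 CPM. Summed levels of 6 muscle differentiation markers at 24 h ranged from 422 to 1350 CPM with siCtrl, 53.9 to 109 with siSMYD3#1, 193 to 217 with siSMYD3#2, 30.7 to 42.7 with the vector and 995 to 1032 in CL5. These are bulk libraries, in which fewer cells of a type and less RNA per cell cannot be told apart.

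Per kb of exon, Ccn1, Ccn2 and Ccn4 made up most of the CCN transcripts and Ccn3 and Ccn5 the least. In siCtrl at 0 h, Ccn1 was at 193 ± 74.1 CPM per kb (SD, n = 3), Ccn4 at 56.3 ± 0.858, Ccn2 at 27.97 ± 7.27, Ccn5 at 5.17 ± 0.645 and Ccn3 at 1.83 ± 1.43, and no neighbours in this order overlapped between libraries. At 24 h the order changed: Ccn4 was at 64.0 ± 3.62, Ccn1 at 51.9 ± 8.72, Ccn2 at 9.76 ± 5.81, Ccn3 at 6.17 ± 4.36 and Ccn5 at 3.10 ± 1.44, and only Ccn1 and Ccn2 were neighbours whose libraries did not overlap. The share of Ccn1 in the 5 genes was 67.9% at 0 h and 38.5% at 24 h with siCtrl. Ccn3 was 4.58% of the 5 genes at 24 h with siCtrl, 0.214% with siSMYD3#1 and 0.498% with siSMYD3#2. In the overexpression experiment Ccn1 ranked first in all 4 groups, with 44.1% to 54.0% of the 5 genes, and Ccn3 last.

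**Figure D1:**
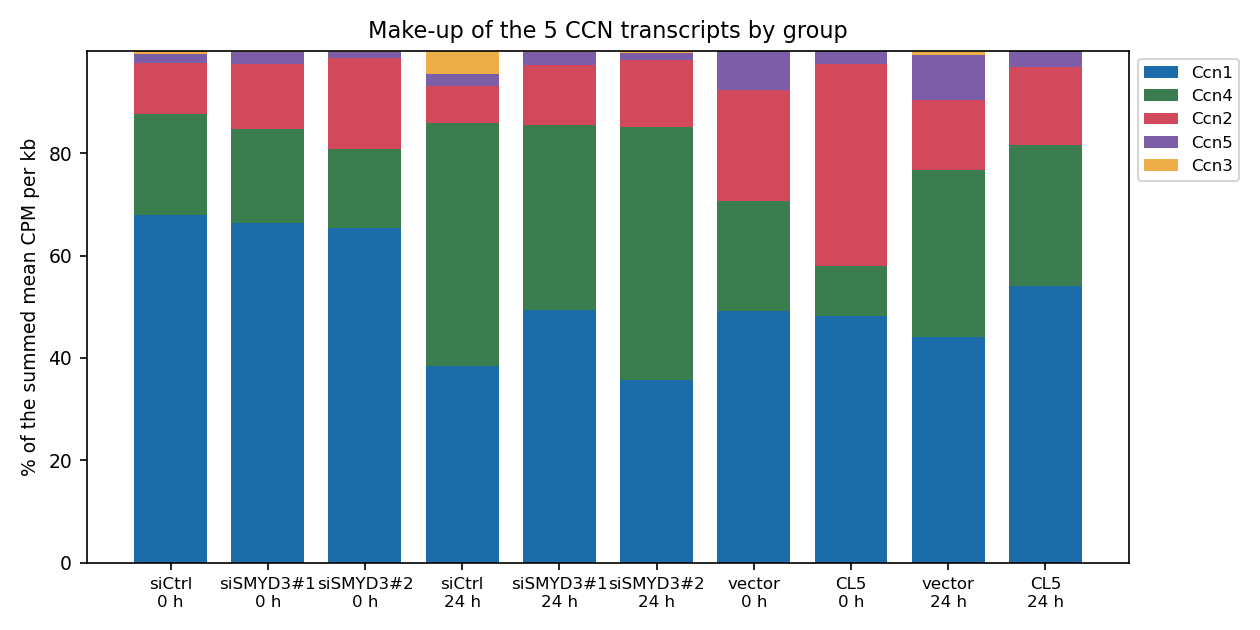
Share of each CCN gene in the summed mean CPM per kb of the 5 genes, in %, for the 10 groups (3 libraries each in the siRNA groups, 2 each in the vector and CL5 groups). Ccn1 filled 67.9% in siCtrl at 0 h and 38.5% at 24 h, and a visible share of Ccn3 (4.58%) was present in siCtrl at 24 h.

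The first question was how the CCN genes moved when control cells differentiated. Of the 4 tested genes, Ccn1, Ccn2 and Ccn5 fell between 0 h and 24 h with siCtrl and none rose, where 29.4% of the 15820 genes tested were called and 14.8% were lowered.

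Ccn1, an adhesion and migration factor, was at 438, 511 and 223 CPM in siCtrl replicates 1, 2 and 3 at 0 h and at 95.3, 94.0 and 125 CPM at 24 h. All libraries at 24 h lay below those at 0 h. The log2 fold change was -1.90 (standard error 0.50, edgeR adjusted p = 0.00957), and replicates 1, 2 and 3 differed by -2.20, -2.44 and -0.83 on the log2 scale, so that the TRIzol library moved least. In the fit with the replicate block the adjusted p was 0.0128, over the threshold of 0.01, with RLE scaling it was 0.0104, and leaving out any one of 5 of the 6 siCtrl libraries (all but TRIzol replicate 3 at 0 h) also ended the call, with log2 fold changes between -2.09 and -1.66. The adjusted p over 12 alternatives ranged from 1.32e-62 to 0.0442.

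Ccn2, the connective tissue growth factor, was at 89.9, 94.0 and 56.1 CPM at 0 h and at 36.3, 38.7 and 8.80 CPM at 24 h. The libraries of the 2 time points did not overlap, and the TRIzol library was the lowest at each. Ccn2 had a log2 fold change of -1.69 (standard error 0.19, edgeR adjusted p = 5.58e-06), and of -1.29 between the means of the NucleoSpin libraries. Without the extraction covariate the adjusted p was 0.0485, within a range over 12 alternatives from 1.24e-44 to 0.0485.

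Ccn5, the member without the cysteine knot, was at 8.71, 9.93 and 11.2 CPM at 0 h and at 5.17, 3.66 and 9.04 CPM at 24 h. The TRIzol library at 24 h overlapped the 0 h libraries, and each replicate was lower at 24 h. Its log2 fold change was -0.78 (standard error 0.21, edgeR adjusted p = 0.00538). The call was lost without either NucleoSpin library of each time point, at adjusted p-values of 0.0141 to 0.0402, and without the extraction covariate, at 0.144, within a range over 12 alternatives from 5.02e-05 to 0.144.

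Ccn4, a Wnt-inducible member, was at 318, 309 and 313 CPM at 0 h and 340, 349 and 379 CPM at 24 h. The libraries at 24 h all lay above those at 0 h, but with a log2 fold change of 0.18 (standard error 0.14) Ccn4 was not called (edgeR adjusted p = 0.318). Ccn3 was the only one of the 5 genes with a higher mean at 24 h by more than 1 log2 unit: it was at 8.49, 6.64 and 0.626 CPM at 0 h and 24.0, 25.9 and 3.31 CPM at 24 h, a log2 fold change of 1.82 (standard error 0.22). The NucleoSpin means of Ccn3 were 12.1 times the TRIzol level at 0 h and 7.53 times at 24 h, so the libraries of the times overlapped, although each replicate was higher at 24 h.

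In cells with the empty vector edgeR called none of the 4 tested genes between 0 h and 24 h, none was under an unadjusted p of 0.05 and DESeq2 called none; the background was 0% of 17835 genes, with 1256 genes under an unadjusted p of 0.05 and 112 called by DESeq2. Ccn3 was at 0.973 and 0.706 CPM at 0 h and at 6.63 and 3.80 CPM at 24 h in the vector libraries, so the libraries of the 2 times were apart. Ccn4 was at 210 and 294 CPM at 0 h and 336 and 406 CPM at 24 h, also apart, with a log2 fold change of 0.56 (standard error 0.31, edgeR adjusted p = 0.788).

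**Figure D2:**
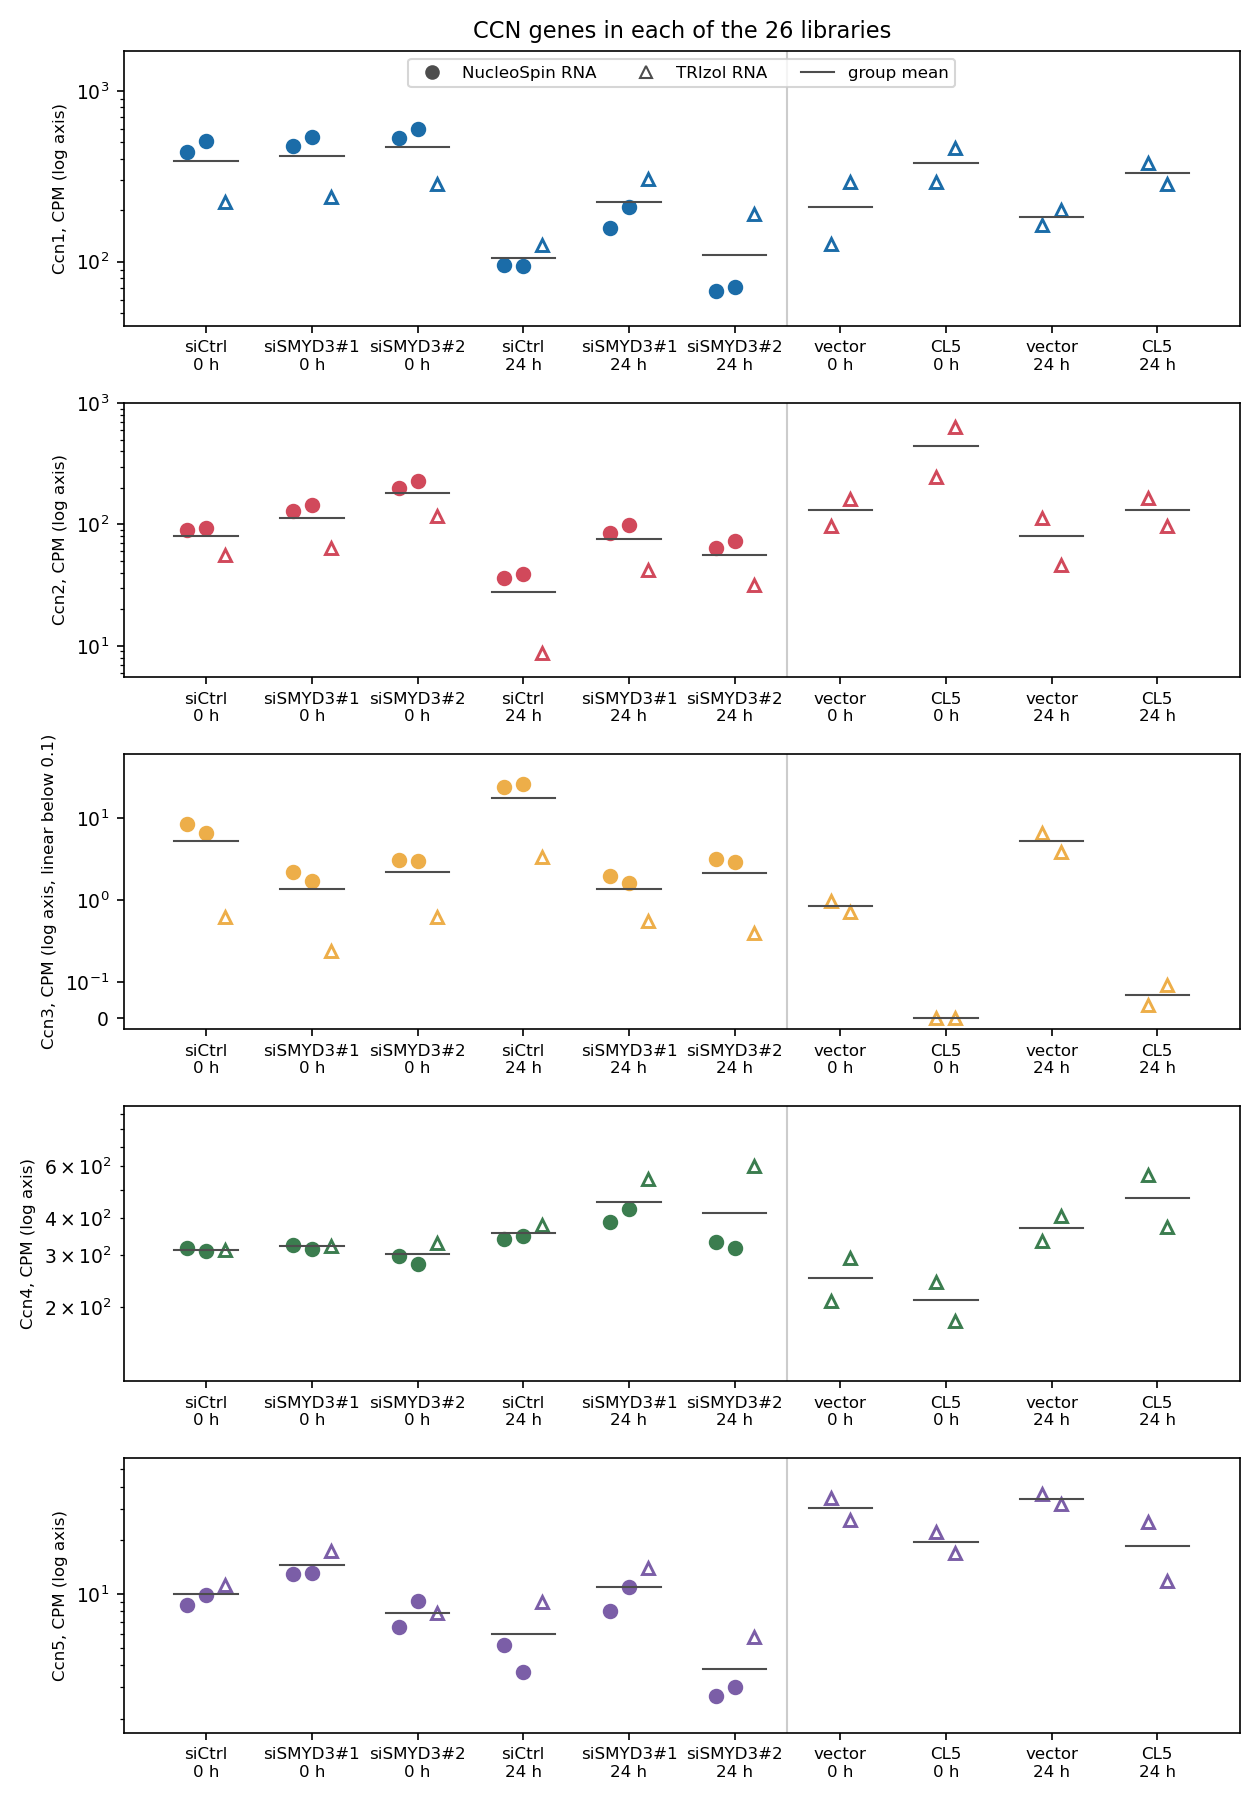
CPM of each CCN gene in every library on log axes (the Ccn3 axis is linear below 0.1), with filled circles for NucleoSpin RNA, open triangles for TRIzol RNA and a line at each group mean. Ccn3 lay at 24.0 and 25.9 CPM in the NucleoSpin siCtrl libraries at 24 h and at or under 3.15 CPM in every library of the SMYD3 siRNAs, and it had 0 counts in both CL5 libraries at 0 h.

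The next comparison asked which CCN genes differed when SMYD3 was targeted. At 24 h, 2 of the 4 tested genes, Ccn2 and Ccn5, rose with siSMYD3#1 against siCtrl, where 5.85% of all genes passed and 2.91% were raised. With siSMYD3#2 at 24 h, 1 of 4 rose, Ccn2, where 3.7% of all genes passed and 1.66% were raised. At 0 h, siSMYD3#2 raised Ccn2 as the 1 member called, where 0.531% of all genes passed. With siSMYD3#1 at 0 h edgeR called 0 of 4, where 1.43% of all genes passed; Ccn2 and Ccn5 were under an unadjusted p of 0.05 and DESeq2 also called 0. The comparisons with siSMYD3#1 and siSMYD3#2 at a time point share their siCtrl libraries, so they are not independent of each other.

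Ccn2 was at 85.5, 98.3 and 42.2 CPM with siSMYD3#1 at 24 h and at 64.2, 73.5 and 31.7 CPM with siSMYD3#2, against 36.3, 38.7 and 8.80 CPM with siCtrl. All siSMYD3#1 libraries lay above all siCtrl libraries, whereas the TRIzol library of siSMYD3#2 lay within the siCtrl range. The log2 fold change was 1.54 with siSMYD3#1 (standard error 0.19, edgeR adjusted p = 8.21e-05) and 1.12 with siSMYD3#2 (standard error 0.19, edgeR adjusted p = 0.00203).

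Within the NucleoSpin means the difference of Ccn2 was 1.29 and 0.88 on the log2 scale for siSMYD3#1 and siSMYD3#2, and within the TRIzol libraries 2.26 and 1.85, so that the direction was the same in both. Without replicate 2 of siSMYD3#2 the adjusted p rose to 0.0119, and without the extraction covariate both calls were lost (adjusted p = 0.236 and 0.538). Over 12 alternatives the adjusted p ranged from 3.97e-36 to 0.236 for siSMYD3#1 and from 3.26e-19 to 0.538 for siSMYD3#2.

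At 0 h Ccn2 was at 199, 229 and 117 CPM with siSMYD3#2, at 129, 146 and 64.3 CPM with siSMYD3#1 and at 89.9, 94.0 and 56.1 CPM with siCtrl. Every siSMYD3#2 library lay above every siCtrl library. Ccn2 differed by a log2 fold change of 1.16 with siSMYD3#2 (standard error 0.19, edgeR adjusted p = 0.00408) and 0.44 with siSMYD3#1 (standard error 0.18, edgeR adjusted p = 0.275). The call for siSMYD3#2 was lost without siCtrl replicate 1 or 2 or without siSMYD3#2 replicate 2 or 3, at adjusted p-values from 0.0197 to 0.0295 and log2 fold changes of 1.07 to 1.14, and without the extraction covariate. Over 12 alternatives the adjusted p ranged from 3.54e-20 to 1. The siSMYD3#1 difference passed over the NucleoSpin libraries alone (log2 fold change 0.58, adjusted p = 0.00280), in a range from 0.00280 to 1.

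Ccn1 was at 157, 210 and 306 CPM with siSMYD3#1 at 24 h, above the 95.3, 94.0 and 125 CPM of siCtrl in every library. Its log2 fold change of 1.10 (standard error 0.49) did not pass in the fit over all libraries (edgeR adjusted p = 0.198). Over the NucleoSpin libraries alone the log2 fold change of 0.96 did pass (adjusted p = 5.38e-05, with a range over 12 alternatives from 2.77e-21 to 0.460), and the TRIzol pair differed by 1.29. With siSMYD3#2 Ccn1 was at 67.6, 70.7 and 189 CPM, lower than siCtrl in the NucleoSpin replicates, by 0.50 and 0.41 on the log2 scale, and higher by 0.60 in the TRIzol replicate. This gave a log2 fold change of 0.06 (standard error 0.49, edgeR adjusted p = 0.967), between -0.77 and 0.35 over 12 alternatives.

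Ccn5 differed between the siRNAs. At 24 h it was at 8.05, 10.97 and 14.01 CPM with siSMYD3#1 and at 2.67, 3.0 and 5.76 CPM with siSMYD3#2, with 5.17, 3.66 and 9.04 CPM in siCtrl. No siSMYD3#1 library overlapped a siSMYD3#2 library, and the siCtrl libraries overlapped both. Against siCtrl the log2 fold change was 0.89 with siSMYD3#1 (standard error 0.21, edgeR adjusted p = 0.00851), and 0.0108 was the adjusted p with the replicate block, over the threshold. Leaving out either NucleoSpin library of siCtrl or any library of siSMYD3#1 also ended that call, at adjusted p-values from 0.0122 to 0.0644. Over 12 alternatives the adjusted p ranged from 2.22e-05 to 0.281, the highest being that without the extraction covariate. With siSMYD3#2 it was -0.64 (standard error 0.22, edgeR adjusted p = 0.0848).

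In a direct test Ccn5 at 24 h was higher with siSMYD3#1 than with siSMYD3#2, with a log2 difference of 1.53 (standard error 0.22, edgeR adjusted p = 0.000306), and it was the 1 of 4 members called there, where 3.36% of all genes passed. Replicates 1, 2 and 3 differed by 1.59, 1.87 and 1.28. The call was lost without the extraction covariate, and the adjusted p over 12 alternatives ranged from 1.12e-13 to 0.0592. Over the NucleoSpin libraries alone 3 members were called, Ccn1 (log2 difference 1.41) and Ccn4 (0.34) beside Ccn5. At 0 h the siSMYD3#1 libraries of Ccn5, at 12.96, 13.2 and 17.5 CPM, also lay above those of siSMYD3#2, at 6.54, 9.10 and 7.82 CPM, with a log2 difference of 0.87 (standard error 0.20, edgeR adjusted p = 0.0229) that did not pass. In that comparison at 0 h edgeR called 0 of 4 members against 1.17% of all genes; Ccn2 and Ccn5 were under an unadjusted p of 0.05 and DESeq2 called both.

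Ccn4 was at 389, 429 and 543 CPM with siSMYD3#1 at 24 h and at 332, 318 and 600 CPM with siSMYD3#2. Every siSMYD3#1 library lay above the siCtrl libraries, while 1 library of siSMYD3#2, the TRIzol one, did and its NucleoSpin replicates were lower than siCtrl by 0.036 and 0.14 on the log2 scale. Neither log2 fold change, 0.34 (edgeR adjusted p = 0.130) or 0.19 (edgeR adjusted p = 0.452), each with a standard error of 0.14, was called.

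Ccn3, by whose values the family was chosen, was at 1.96, 1.63 and 0.552 CPM with siSMYD3#1 and at 3.15, 2.94 and 0.392 CPM with siSMYD3#2 at 24 h, against 24.0, 25.9 and 3.31 CPM with siCtrl. Every library of both siRNAs lay below every siCtrl library. The log2 fold changes were -3.49 (standard error 0.25) and -3.02 (standard error 0.25), and the TRIzol replicates differed by -2.58 and -3.08. At 0 h Ccn3 was at 2.22, 1.68 and 0.237 CPM with siSMYD3#1 and at 3.05, 2.99 and 0.628 CPM with siSMYD3#2, and the TRIzol library of siSMYD3#2 was at the level of the siCtrl one, 0.626 CPM. With siSMYD3#1 Ccn3 stayed near 1.38 CPM on average at both times, and with siSMYD3#2 near 2.22 CPM at 0 h and 2.16 CPM at 24 h, so that the higher mean of 24 h seen with siCtrl was not seen with either siRNA. Behind these levels stood 7 to 140 counts per library of the SMYD3 siRNAs, against 17 to 547 with siCtrl.

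The change of each siRNA effect from 0 h to 24 h was called for 0 of 4 members by edgeR with either siRNA, against 0.215% of all genes for siSMYD3#1 and 0.019% for siSMYD3#2. For siSMYD3#1 Ccn2 was under an unadjusted p of 0.05, with a log2 difference of effects of 1.10 (standard error 0.27, edgeR adjusted p = 0.0863), and DESeq2 called it. For siSMYD3#2 no member was under an unadjusted p of 0.05 and DESeq2 called 0. Time since transfection also differed between 0 h and 24 h, and cannot be told apart from differentiation in this comparison.

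**Figure D3:**
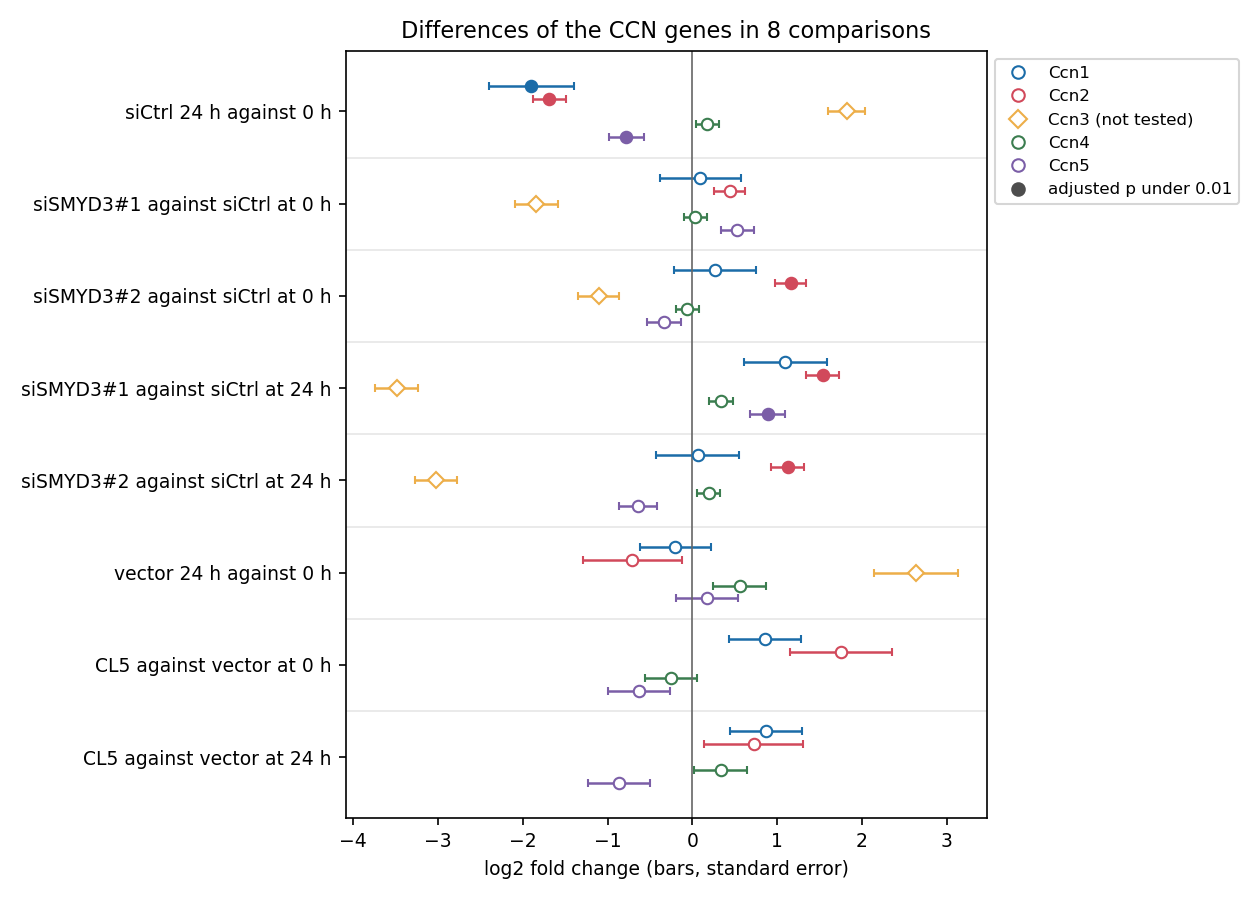
Log2 fold change of each CCN gene in 8 comparisons, with bars of 1 standard error; filled symbols passed an adjusted p of 0.01, and Ccn3 (diamonds) was not tested. Ccn2 lay at 1.54 and 1.12 with siSMYD3#1 and siSMYD3#2 at 24 h and Ccn3 at -3.49 and -3.02; Ccn3 in CL5 is left out because its counts there were 0 to 2.

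In the overexpression experiment CL5 was compared with the vector at each time. None of the 4 tested members passed in edgeR at 24 h, where 0.964% of 17835 genes did, or at 0 h, where 1.07% did; under an unadjusted p of 0.05 were Ccn5 at 24 h and Ccn2 at 0 h, and DESeq2 called 0 at both times. With 2 libraries a group the fit had 4 residual degrees of freedom and a common dispersion of 0.0903, against 11 and 0.0159 in the siRNA fit. Groups of 2 libraries can often lie apart without a difference between them. The share of all genes whose libraries lay apart was not counted. In this experiment, libraries that lie apart between lines or times are therefore a description only.

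Ccn3 had 31 and 29 counts in the vector libraries at 0 h and 0 in both CL5 libraries. Taken at 3 counts in each CL5 library, it was at least 11.01-fold lower in CL5. At 24 h it had 299 and 248 counts with the vector (6.63 and 3.80 CPM) and 2 in each CL5 library (0.0355 and 0.0921 CPM). The groups did not overlap at either time.

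Ccn1 was at 294 and 463 CPM in CL5 and at 127 and 291 CPM with the vector at 0 h, and at 376 and 286 against 164 and 200 CPM at 24 h. At each time both CL5 libraries lay above both vector libraries. The log2 fold change was 0.86 at both times, each with a standard error of 0.42, and did not pass (edgeR adjusted p = 0.332 at 0 h and 0.439 at 24 h).

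Ccn2 reached its highest levels of the series in CL5 at 0 h, at 248 and 632 CPM against 97.8 and 163 CPM with the vector. The libraries were apart, with a log2 fold change of 1.75 (standard error 0.60, edgeR adjusted p = 0.179). CL5 replicate 2 at 0 h, the higher of the pair for Ccn2, was also the higher for Myog, the muscle transcription factor myogenin, at 81.9 against 15.9 CPM, and the part of this in the result was not tested. Myog lies outside the rule for named genes and was chosen after its values were seen. At 24 h Ccn2 was at 167 and 96.5 CPM in CL5 and at 113 and 46.3 CPM with the vector, which overlap (log2 fold change 0.72, standard error 0.59, edgeR adjusted p = 0.703).

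Ccn5 was at 34.3 and 26.1 CPM with the vector at 0 h and 36.2 and 32.0 CPM at 24 h, above CL5 at 22.1 and 17.1 CPM and at 25.4 and 11.8 CPM. The pairs did not overlap. The log2 fold changes of -0.63 and -0.87, each with a standard error of 0.37, did not pass (edgeR adjusted p = 0.409 at 0 h and 0.354 at 24 h). Ccn4 was at 244 and 180 CPM in CL5 at 0 h and at 563 and 374 CPM at 24 h, and overlapped the vector at both times.

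Between 0 h and 24 h in CL5, edgeR called 0 of 4 members, with Ccn2 and Ccn4 under an unadjusted p of 0.05 and 0 called by DESeq2; the background was 0%, with 1137 genes under an unadjusted p of 0.05 and 96 called by DESeq2. Ccn2 had a log2 fold change of -1.74 (standard error 0.60, edgeR adjusted p = 0.664) and Ccn4 one of 1.14 (standard error 0.31, edgeR adjusted p = 0.517), and for both the libraries of the 2 times were apart. The difference of the CL5 effect between times was called for 0 of 4 members, with 0 under an unadjusted p of 0.05 and 0 by DESeq2, against 0% of all genes (312 under an unadjusted p of 0.05, 2 by DESeq2).

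Ccn3 and Myog are set side by side as a description, since the low values of Ccn3 with the siRNAs and in CL5 are those on which the family was chosen. Over the siRNA libraries the highest Ccn3 was found where Myog was highest, at 222 and 262 CPM of Myog in the NucleoSpin siCtrl libraries at 24 h. The TRIzol siCtrl library at 24 h had 55.6 CPM of Myog and 3.31 CPM of Ccn3. The SMYD3 siRNA libraries at 24 h had 5.64 to 48.6 CPM of Myog and at most 3.15 CPM of Ccn3. Yet the NucleoSpin siCtrl libraries at 0 h had more Ccn3 than these, 8.49 and 6.64 CPM, with 1.10 and 1.87 CPM of Myog. In CL5, Myog was at 15.9 to 123.2 CPM over both times and Ccn3 had 0 to 2 counts. In the vector libraries at 24 h, Myog was at 7.27 and 7.03 CPM and Ccn3 at 6.63 and 3.80 CPM.

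**Figure D4:**
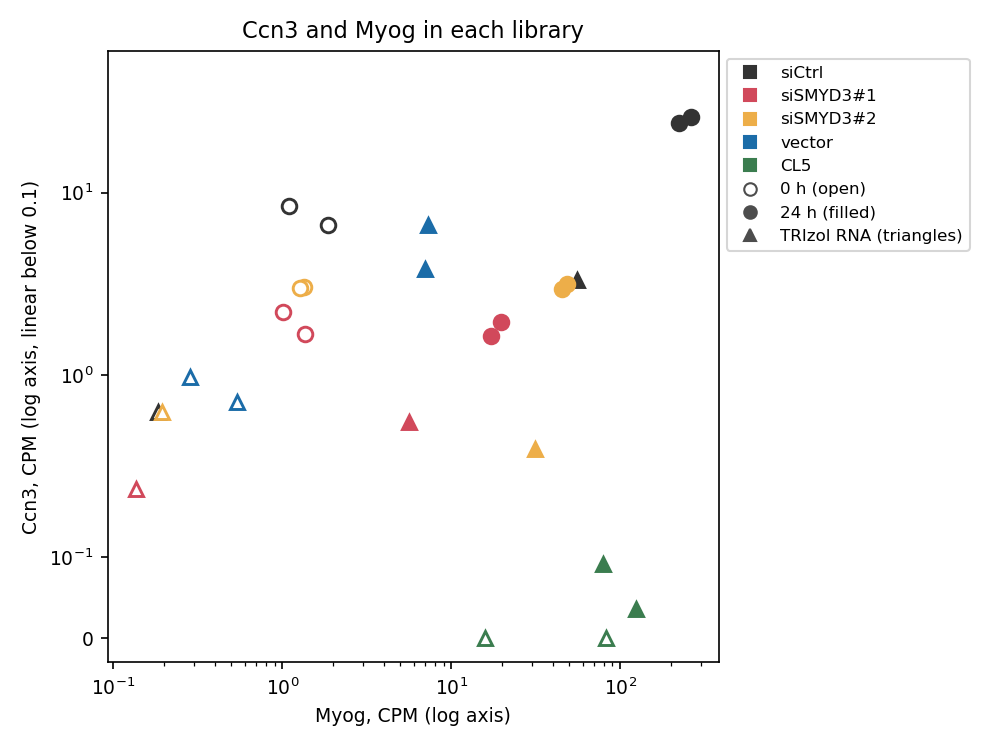
Ccn3 against Myog in CPM, both on log axes (Ccn3 linear below 0.1), 1 point per library, coloured by treatment, open at 0 h and filled at 24 h, with triangles for TRIzol RNA. The CL5 libraries lie at 15.9 to 123.2 CPM of Myog with 0 to 0.0921 CPM of Ccn3, and the NucleoSpin siCtrl libraries at 24 h lie highest on both axes.

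Among 12650 genes searched, those most like each CCN gene across the 18 siRNA libraries, after removing the mean of each extraction method, were found by Pearson's r of log2 CPM. The libraries share treatments, times and extraction, so r is a description. For Ccn2 the first were Uck2 (r = 0.943) and Rps6ka4 (r = 0.942), with r of 0.021 and 0.053 over the 8 overexpression libraries. For Ccn3 they were Tppp3 (r = 0.923), Asb1 (r = 0.912) and Qdpr (r = 0.903), with r of -0.25, 0.80 and -0.55 over the overexpression libraries. Ccn4 was most like Ice1 (r = 0.902), Ugcg (r = 0.899) and Cdon (r = 0.893), a myoblast cell surface protein, each at 0.77 to 0.81 in the overexpression libraries. Ccn5 was most like Ece1 (r = 0.960), Snx8 (r = 0.918) and Amotl2 (r = 0.918), with r of 0.38, -0.81 and 0.40 over the overexpression libraries. Ccn1 was most like Errfi1 (r = 0.958), Prg4 (r = 0.956) and Txndc11 (r = 0.952); the 3 genes of Ccn1 had negative r over the overexpression libraries, between -0.78 and -0.61. Between members, Ccn1 and Ccn2 had r of 0.698 over the siRNA libraries and 0.703 over the overexpression libraries, and Ccn2 and Ccn4 had -0.350 and -0.546. The sign differed between the experiments for Ccn1 and Ccn5 (0.772 and -0.667) and for Ccn2 and Ccn5 (0.435 and -0.395). It also differed for Ccn1 and Ccn4 (-0.221 and 0.052) and for Ccn4 and Ccn5 (-0.130 and 0.074). Pairs with Ccn3 are left out because its values chose the family.

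Genes around the CCN proteins were read from 6 lists. Of 20 targets of YAP and TEAD other than the CCN genes, 7 rose and 6 fell between 0 h and 24 h with siCtrl, where 14.6% of all genes were raised and 14.8% lowered. Igfbp3, an insulin-like growth factor binding protein, rose most (log2 fold change 3.38, standard error 0.24, edgeR adjusted p = 2.03e-08), and Crim1, a transmembrane binder of BMPs, fell most (log2 fold change -1.09, standard error 0.16, edgeR adjusted p = 2.92e-05). With siSMYD3#1 at 24 h, 9 of the 20 rose and 1 fell, against 2.91% and 2.94% of all genes, and the median of their log2 fold changes was 0.44, beside -0.00052 over all genes. Nt5e, the ectonucleotidase CD73, rose most (log2 fold change 1.67, standard error 0.20, edgeR adjusted p = 2.32e-05), and Igfbp3 was the gene that fell (log2 fold change -1.49, standard error 0.22, edgeR adjusted p = 0.000237). With siSMYD3#2, 1 of 20 rose and 0 fell, against 1.66% and 2.04% of all genes; that gene was the receptor kinase Axl (log2 fold change 0.44, standard error 0.07, edgeR adjusted p = 0.000988), whose call was lost without either of siCtrl replicates 1 and 2 or siSMYD3#2 replicates 2 and 3. The median of the 20 log2 fold changes was 0.00028 with siSMYD3#2. Over the NucleoSpin libraries alone 3 of the 20 rose and 3 fell with siSMYD3#2, and 11 rose and 1 fell with siSMYD3#1. In CL5, 0 rose and 1 fell, against 0.376% and 0.589% of all genes, and it was Igfbp3, at 0 counts in both CL5 libraries and 151 and 186 counts with the vector at 24 h; it is named here because the count was 1. At 0 h Igfbp3 had 1 and 0 counts in CL5 and 130 and 84 counts with the vector. The call of Igfbp3 at 24 h, and those of Bgn and Smoc2, were lost without any 1 of the 4 libraries at 24 h.

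The 16 tested CCN receptors and binding partners of 18 listed included integrins, LRP1, the gap junction protein connexin 43 and proteoglycans. With siCtrl 2 rose and 2 fell between the times, against 14.6% and 14.8% of all genes, led by Dcn, the proteoglycan decorin (log2 fold change 4.83, standard error 0.23, edgeR adjusted p = 7.80e-11), and Itgb3, the integrin beta 3 subunit (log2 fold change -0.47, standard error 0.11, edgeR adjusted p = 0.00147). With siSMYD3#1 at 24 h 7 rose and 0 fell, against 2.91% and 2.94% of all genes, and the list had a median log2 fold change of 0.40. Bgn, the proteoglycan biglycan, rose most (log2 fold change 0.97, standard error 0.10, edgeR adjusted p = 7.40e-06). Over the NucleoSpin libraries alone 8 rose and 2 fell. The list had a median log2 fold change of 0.27 with siSMYD3#2. With siSMYD3#2, where 1.66% of all genes rose and 2.04% fell, Fn1, fibronectin, rose most of 2 (log2 fold change 0.69, standard error 0.15, edgeR adjusted p = 0.00930) and Dcn was the 1 that fell (log2 fold change -1.38, standard error 0.19, edgeR adjusted p = 0.000236). The call of Fn1 was lost with the replicate block, over the NucleoSpin libraries alone, where 0 of the list rose, and without any 1 of siCtrl replicates 1, 2 and 3 or siSMYD3#2 replicate 3. In CL5 at 24 h, where 0.376% of all genes rose and 0.589% fell, Bgn was the 1 gene called. It was lower in CL5, at 37.0 and 37.9 CPM against 1227 and 1182 CPM with the vector (log2 fold change -5.01, standard error 0.41, edgeR adjusted p = 0.00161). Bgn was already lower at 0 h, at 18.3 and 38.2 CPM in CL5 against 1227 and 1397 CPM with the vector. DESeq2 called 0 of the list raised and 4 lowered. The summed fibroblast or mesenchymal markers were at 2311 to 2493 CPM in CL5 and 7792 to 8458 CPM with the vector at 24 h. Of these 6 markers, 4 reached 1 CPM in each of the 2 groups. The part of these markers in the lower level of Bgn was not tested.

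Of 17 tested genes among 23 other matricellular proteins, 3 rose and 4 fell with differentiation of siCtrl cells, where 14.6% of all genes rose and 14.8% fell, with Postn, periostin, at a log2 fold change of 1.67 (standard error 0.34, edgeR adjusted p = 0.00135) and Spp1, osteopontin, at -1.64 (standard error 0.16, edgeR adjusted p = 4.25e-07). With siSMYD3#1 8 rose and 0 fell, against 2.91% and 2.94% of all genes, with a median log2 fold change of 0.72, led by Postn (log2 fold change 3.08, standard error 0.34, edgeR adjusted p = 7.33e-05). With any 1 library left out 5 to 8 rose, the 5 without siCtrl replicate 1, while 9 rose and 1 fell over the NucleoSpin libraries alone and 10 rose and 1 fell by DESeq2. Summed levels of 6 fibroblast or mesenchymal markers were 7648 to 12092 CPM with siSMYD3#1 at 24 h and 4900 to 5676 CPM with siCtrl. Of the 6, 4 reached 1 CPM with siSMYD3#1 and 5 with siCtrl, so the sum does not show each marker. Dcn, which is in the sum, was lower with siSMYD3#1 without passing (log2 fold change -0.67, standard error 0.18, edgeR adjusted p = 0.0226). The part of these markers in the rises of the list was not tested. With siSMYD3#2, against 1.66% and 2.04% of all genes, 1 rose, Spp1 (log2 fold change 0.74, standard error 0.15, edgeR adjusted p = 0.00563), and 1 fell, Tnxb, named because the count was 1 (log2 fold change -3.0, standard error 0.52, edgeR adjusted p = 0.00131). The call of Spp1 was lost without any 1 of siCtrl replicates 1 and 3 or siSMYD3#2 replicates 2 and 3, and that of Tnxb without siCtrl replicate 1 or siSMYD3#2 replicate 2. The list had a median log2 fold change of 0.15 with siSMYD3#2. In CL5, against 0.376% and 0.589% of all genes, 1 rose, Smoc2 (log2 fold change 3.04, standard error 0.39, edgeR adjusted p = 0.00856), and 0 fell, while DESeq2 called 2 raised and 4 lowered and the median log2 fold change of the list was -0.65.

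For the lists that follow, the shares of all genes that rose and fell were 14.6% and 14.8% with siCtrl between the times, 2.91% and 2.94% with siSMYD3#1, 1.66% and 2.04% with siSMYD3#2, and 0.376% and 0.589% in CL5. All 14 TGF-beta ligands, receptors and response genes were tested. With siCtrl 4 rose and 4 fell, the largest fall being that of the inhibitory Smad7 (log2 fold change -1.10, standard error 0.14, edgeR adjusted p = 8.28e-06); with siSMYD3#1 4 rose and 0 fell, with Postn again the largest, and 7 rose over the NucleoSpin libraries alone. With siSMYD3#2 0 rose and 1 fell, the ligand gene Tgfb3 (log2 fold change -0.60, standard error 0.08, edgeR adjusted p = 0.000160), and in CL5 edgeR called 0 and DESeq2 4. Of 15 actin cytoskeleton targets of SRF and MRTF, 4 rose and 2 fell with siCtrl, led by Myl9 (log2 fold change 1.78, standard error 0.21, edgeR adjusted p = 8.54e-06) and Srf itself (log2 fold change -0.40, standard error 0.09, edgeR adjusted p = 0.000974). With siSMYD3#1 4 rose and 1 fell, with Fhl2 at 0.67 (standard error 0.08, edgeR adjusted p = 3.03e-05) and Fhl1 at -0.52 (standard error 0.09, edgeR adjusted p = 0.000893) on the log2 scale. Over the NucleoSpin libraries alone 3 rose and 3 fell, and with any 1 library left out 2 to 3 rose, the 2 without siCtrl replicate 2, and 1 to 2 fell, the 2 without siCtrl replicate 3 or siSMYD3#1 replicate 3. With siSMYD3#2 1 rose, Fhl2 (log2 fold change 0.53, standard error 0.08, edgeR adjusted p = 0.000520), and in CL5 edgeR called 0 and DESeq2 1. Of 8 tested Wnt and beta-catenin response genes among 12 listed, 2 rose with siCtrl, Lgr5 and Axin2, which are named because the count was 2. With siSMYD3#1 2 rose and 1 fell, with Nkd2 at 2.39 (standard error 0.43, edgeR adjusted p = 0.00193) and Apcdd1 at -0.81 (standard error 0.19, edgeR adjusted p = 0.00938) on the log2 scale. The call of Nkd2 was lost without siCtrl replicate 1 or 2 or siSMYD3#1 replicate 3, and that of Apcdd1 with the replicate block and without any 1 of siCtrl replicates 1 and 2 or the siSMYD3#1 libraries. EdgeR called 0 of the 8 with siSMYD3#2 or in CL5, where DESeq2 called 1 in each. Without the extraction covariate fewer genes rose with siSMYD3#1 in each of the 6 lists, at 2 YAP and TEAD targets, 2 receptors or partners, 1 other matricellular protein, 1 TGF-beta gene, 0 SRF and MRTF targets and 1 Wnt gene.

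**Figure D5:**
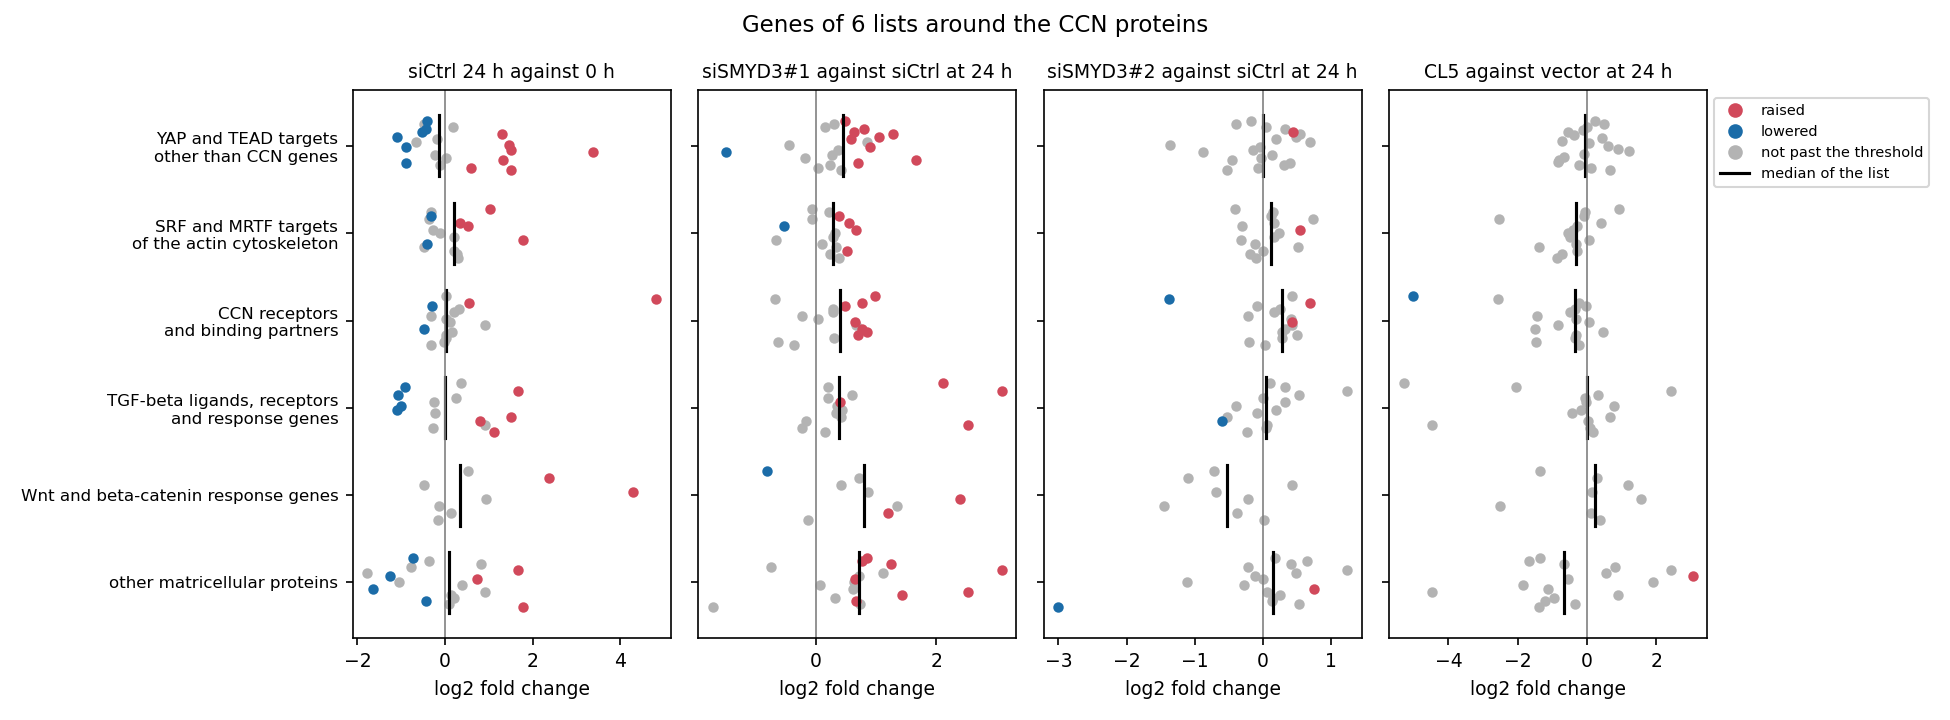
Log2 fold changes of the tested genes of 6 lists in 4 comparisons, 1 point per gene, coloured where an adjusted p under 0.01 was reached, with the median of each list as a vertical line (Igfbp3 is left out of the CL5 panel because it had 0 counts there at 24 h; panels have their own axis ranges). With siSMYD3#1 the medians of the YAP and TEAD targets and of the other matricellular proteins were 0.44 and 0.72. With siSMYD3#2 they were 0.00028 and 0.15.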

How the data were processed

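The authors made stranded polyA libraries from total RNA, aligned paired-end reads to GRCm38 with HISAT2 2.1.0 and counted reads per gene with featureCounts of Subread 1.6.3, per the labels and methods, and deposited raw counts per gene without normalization. The annotation release, strand setting and treatment of multiply aligned reads are not given in the sources used here. Of 55341 genes, 54495 were matched to GENCODE M21.

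The counts were fitted here with edgeR 4.0.16 under R 4.3.3 (filterByExpr, TMM, robust quasi-likelihood F test, two-sided, Benjamini-Hochberg over all genes tested, threshold 0.01). The siRNA fit held 18 libraries in 6 groups with extraction as a covariate (15820 genes), and the overexpression fit 8 libraries in 4 groups (17835 genes), in 14 comparisons. Depth was 14315193 to 67853386 counts per library. Alternatives were DESeq2 1.42.0, RLE scaling, no filter on low counts, a replicate block, no extraction covariate, NucleoSpin libraries only, and each library left out; applying them to the gene lists was chosen after seeing the data. The fits were also run on simulated counts, whose outcome is not given here. Those counts held no extraction effect, so the runs do not check the extraction covariate. The fold of Ccn3 in CL5 at 0 h, where both libraries had 0 counts, was bounded at 3 counts per library.

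Replicate numbers came from the study's sample list, not from the public labels. Between siRNA groups the deviations of libraries with the same number correlated at 0.313 to 0.851. The TRIzol library had the same number in every siRNA group, so its difference from the NucleoSpin libraries can give such values without pairing. Between the NucleoSpin libraries alone the correlations were -0.102 to 0.177. These values therefore do not show that the numbers pair the libraries. The paper's methods call the replicates biological, while the labels do not say that they were separate cultures. The p-values measure the spread between these libraries, and how far that spread is technical is not known.

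The CCN genes, the gene lists and the tests were chosen with earlier results of these data known. Named genes are the CCN genes, Smyd3, for each list and 4 comparisons the largest called rise and fall among those averaging 100 counts or more per library, and the 3 genes most like each CCN gene by Pearson's r of log2 CPM (prior count 2) with a mean of at least 1 CPM; genes outside this rule are marked. One gene that this rule named for Ccn2 is not reported here. Promoter and siRNA sequences came from RefSeq and from the study's oligonucleotide list, and of the 5 promoters only that of Ccn1 was available. Between libraries 0 pairs held identical counts.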

Additional observations from a re-analysis of the deposited data

Results flagged for a closer look

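Ccn5 was set apart by a direct test of one siRNA against the other: at 24 h the difference between siSMYD3#1 and siSMYD3#2 was a log2 value of 1.53 (standard error 0.22), past the threshold by edgeR (adjusted p = 0.000306; 1.12e-13 to 0.0592 over 12 alternatives), with siSMYD3#1 higher in 3 of 3 replicates. Groups here hold 2 or 3 libraries, too few to test a single library for standing apart.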

How the results depend on the processing

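Directions of called CCN genes did not reverse in any alternative run. The main moves in the number of members called follow, and not every change by 1 gene is listed. With RLE scaling Ccn1 was lost for siCtrl at 24 h against 0 h, and over the NucleoSpin libraries Ccn1 was called for siSMYD3#1 at 24 h. Without the extraction covariate the count fell from 3 to 1 for siCtrl at 24 h against 0 h, from 2 to 0 for siSMYD3#1 and from 1 to 0 for siSMYD3#2 at 24 h, from 1 to 0 for siSMYD3#2 at 0 h and from 1 to 0 between the SMYD3 siRNAs at 24 h. With the replicate block it fell from 2 to 1 for siSMYD3#1 at 24 h, and for siCtrl at 24 h against 0 h Ccn1 was lost as well. No other call of a CCN gene changed in the siRNA fit with that block. In the overexpression fit, where 2 pairs correlated at -0.097 to 0.483, the replicate block left 0 members called. Over the NucleoSpin libraries it was 1 for siSMYD3#1 at 0 h, and 3 and 1 between the SMYD3 siRNAs at 24 h and 0 h. With no filter on low counts it was 1 for siSMYD3#1 at 0 h, 2 and 2 between the SMYD3 siRNAs, 2 for the change of the siSMYD3#1 effect, 1 for CL5 at 24 h against 0 h and 1 for CL5 against vector at 0 h. DESeq2 called 2 between the SMYD3 siRNAs at 0 h and 1 for the change of the siSMYD3#1 effect. Leaving out 1 library gave 1 to 3 for siCtrl, 1 to 2 for siSMYD3#1 and 0 to 1 for siSMYD3#2 at 24 h, 0 to 1 for siSMYD3#2 at 0 h, 1 between the SMYD3 siRNAs at 24 h, and 0 elsewhere; a lone library of an overexpression group was assumed to vary like the others. The cause was not tested.

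Genes called over all tested, which set the background, moved by over 1.5 times in 100 fits and by less in 64. With siSMYD3#1 at 24 h they were 926, 1772 over the NucleoSpin libraries, 1496 with no filter and 102 without the covariate. With siSMYD3#2 at 24 h they were 586, 1275, 1170 and 18, and 1043 by DESeq2; with siCtrl the fit without the covariate gave 1676 in place of 4655. At 0 h siSMYD3#1 had 226, 462, 527, 15 and, by DESeq2, 525, and siSMYD3#2 had 84, 138, 208, 5 and 210. Between the SMYD3 siRNAs the same 5 were 532, 1486, 1092, 25 and 1026 at 24 h and 185, 423, 468, 11 and 409 at 0 h. CL5 against vector had 172 at 24 h and 191 at 0 h, 834 and 989 by DESeq2, 1032 and 1246 with no filter, and 0 to 12 and 0 to 2369 with 1 library left out. CL5 between times had 0, and 1037 without CL5 replicate 1 at 0 h. By edgeR, and in brackets by DESeq2 and with no filter, the vector had 0 (112 and 203) and CL5 between times 0 (96 and 216), and the changes of the siSMYD3#1, siSMYD3#2 and CL5 effects had 34 (145 and 277), 3 (112 and 230) and 0 (2 and 12), with 160 and 175 over the NucleoSpin libraries for the siRNAs.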
